A study of Mus musculus with 18 samples.

Results

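The genes for storing, carrying, importing, exporting and sensing iron were followed in cultured mouse testes, 10 in number: the ferritin subunits Fth1 and Ftl1, the ferritin adaptor Ncoa4, the transferrin receptor Tfrc, transferrin (Trf), the importer Slc11a2, the exporter Slc40a1, ceruloplasmin (Cp) and the iron regulatory proteins Aco1 and Ireb2. These 10 of the 22657 genes in the expression table were found by their NCBI gene numbers. Fth1 was chosen by its measured FPKM, as the most abundant transcript in several samples with busulfan, so its own change with busulfan is given below as a description without a test. The other 9 were taken for their roles in the same pathway, with earlier results of these data known.

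The 18 samples were whole testes of ICR mice. The mice of groups B0, BA10 and BA50 received busulfan, a DNA-alkylating chemotherapy drug toxic to testicular germ cells. It was given once at 3 weeks of age at 40 µg/g body weight. The mice of groups A0, A10 and A50 did not receive it. Testes were taken 2 weeks later and kept for 48 h in DMEM/F12 medium with 10% serum at 37 °C and 5% CO2. Alginate oligosaccharides (AOS, short sugar chains cut from a seaweed polymer) were added to the medium at 0 µg/mL (A0, B0), 10 µg/mL (A10, BA10) or 50 µg/mL (A50, BA50). All groups therefore share the culture and its serum, and each held 3 samples. Samples are named by their number within the group, as in A10 sample 3. The study's methods describe several testes per treatment and repeats of the culture, but neither they nor the labels say whether a sequenced sample is a repeat, a pool of testes or the testis of a single animal, so p-values measure the spread between these samples, which may be technical.

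Iron enters most cells bound to transferrin, which is taken up with its receptor, and Slc11a2 (DMT1) moves the released iron into the cytosol. What is not used is stored inside ferritin, a shell of heavy (Fth1) and light (Ftl1) chains, and Ncoa4 delivers ferritin to lysosomes when iron is needed. Slc40a1 (ferroportin) exports iron and ceruloplasmin oxidises it so that transferrin can bind it. In the testis, Sertoli cells make transferrin for the germ cells they enclose, and macrophages recycle iron. Aco1 (IRP1) and Ireb2 (IRP2) bind a hairpin called the iron-responsive element when iron is scarce: in a 5′ untranslated region (UTR) the bound hairpin blocks translation, and in the 3′ UTR of Tfrc it protects the transcript. Much of this control thus acts on translation, which transcript levels do not show.

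The hairpins are shown because they are the sequences through which this control acts. A search of the annotated UTRs on the transcript strand (GENCODE M21, GRCm38) for a C, 5 bases, the loop CAGTGN and 5 bases that pair with the first 5 (G-T pairs allowed) found 7 sites in 4 of the 10 genes. They are printed 5′ to 3′ with the loop in capitals, 1 site in exon 1 of Fth1, Ftl1 and Slc40a1 and 4 sites in exon 19 of Tfrc.
Fth1 5′ UTR, chr19:9982732-9982761, plus strand: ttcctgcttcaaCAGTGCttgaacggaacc
Ftl1 5′ UTR, chr7:45459778-45459807, minus strand: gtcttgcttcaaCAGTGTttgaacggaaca
Slc40a1 5′ UTR, chr1:45925464-45925493, minus strand: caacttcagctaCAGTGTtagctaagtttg
Tfrc 3′ UTR, chr16:32631219-32631248, plus strand: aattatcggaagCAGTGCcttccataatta
Tfrc 3′ UTR, chr16:32631598-32631627, plus strand: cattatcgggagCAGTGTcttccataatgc
Tfrc 3′ UTR, chr16:32631663-32631692, plus strand: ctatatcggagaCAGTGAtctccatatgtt
Tfrc 3′ UTR, chr16:32631710-32631739, plus strand: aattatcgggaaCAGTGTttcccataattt
The same letters occurred in the 5′ UTR of 31 of 20899 genes (0.148%) and in the 3′ UTR of 129 of 21022 genes (0.614%), where UTRs differ in length. Trf, Slc11a2, Ireb2, Aco1, Ncoa4 and Cp held no match in their annotated UTRs. A match is a run of letters and not a measured binding site, and hairpins with a bulge or an unpaired base in this stem are not found by the search, so a gene without a match may still carry one.

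The deposited values were FPKM (fragments scaled to transcript length and to the sample's mapped total), which take account of length and can be compared between genes. Sequencing depth is unknown: whole reads could not be recovered from the low values, and the FPKM of a sample summed to between 463970 and 511274. Within groups, samples correlated at r = 0.962 to 0.993 over all genes on the log2(FPKM + 1) scale, and A10 sample 3 stood furthest apart, at 0.962 and 0.968 to the remaining A10 samples against 0.992 between those. It also held the lowest Sertoli marker sum of the 18 (1209 FPKM over 11 markers). Defining markers of Sertoli (Clu), Leydig (Insl3), macrophage (Lyz2), spermatocyte (Hspa2) and spermatid (Prm2) lineages were all present, and no marker was at 0 in all samples. The spermatocyte sum (8 markers) was 304 to 540 FPKM without and 102 to 260 FPKM with busulfan, and the spermatogonium sum (7 markers) was 88.7 to 166 FPKM and 55.8 to 110.4 FPKM. The spermatid sum (8 markers) did not fall, at 2368 to 4910 FPKM without (median 3558) and 2288 to 10893 FPKM with busulfan (median 4720). The B0 samples differed from all others in fat cell markers (207 to 887 FPKM over 7 markers, against 42.5 to 138 FPKM in the other 15 samples) and in simple epithelium markers (81.4 to 216 FPKM over 6 markers, against 17.8 to 48.9 FPKM), and by less in endothelium markers (65.3 to 75.0 FPKM over 4 markers, against 26.5 to 60.2 FPKM). In whole-organ RNA, fewer cells of a type and less RNA per cell cannot be told apart.

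The 10 genes spanned more than 2 orders of magnitude in FPKM. Over the 18 samples Fth1 averaged 4906 ± 1320 FPKM (SD) and Ftl1 2561 ± 508 FPKM, and Fth1 was above Ftl1 in 18 of 18 samples. Cp (133 ± 55.6 FPKM), Trf (106 ± 46.8 FPKM) and Ncoa4 (87.4 ± 11.4 FPKM) came next with overlapping ranges: Cp was above Trf in 13 and Trf above Ncoa4 in 12 of 18 samples. Ireb2 (30.3 ± 3.08 FPKM) lay below Ncoa4 in all samples and above Slc11a2 (24.9 ± 3.55 FPKM) in 17. The remaining neighbours in this order overlapped as well: Slc40a1 (22.7 ± 9.06 FPKM), Tfrc (15.4 ± 2.36 FPKM) and Aco1 (12.3 ± 2.28 FPKM).

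**Figure D1:**
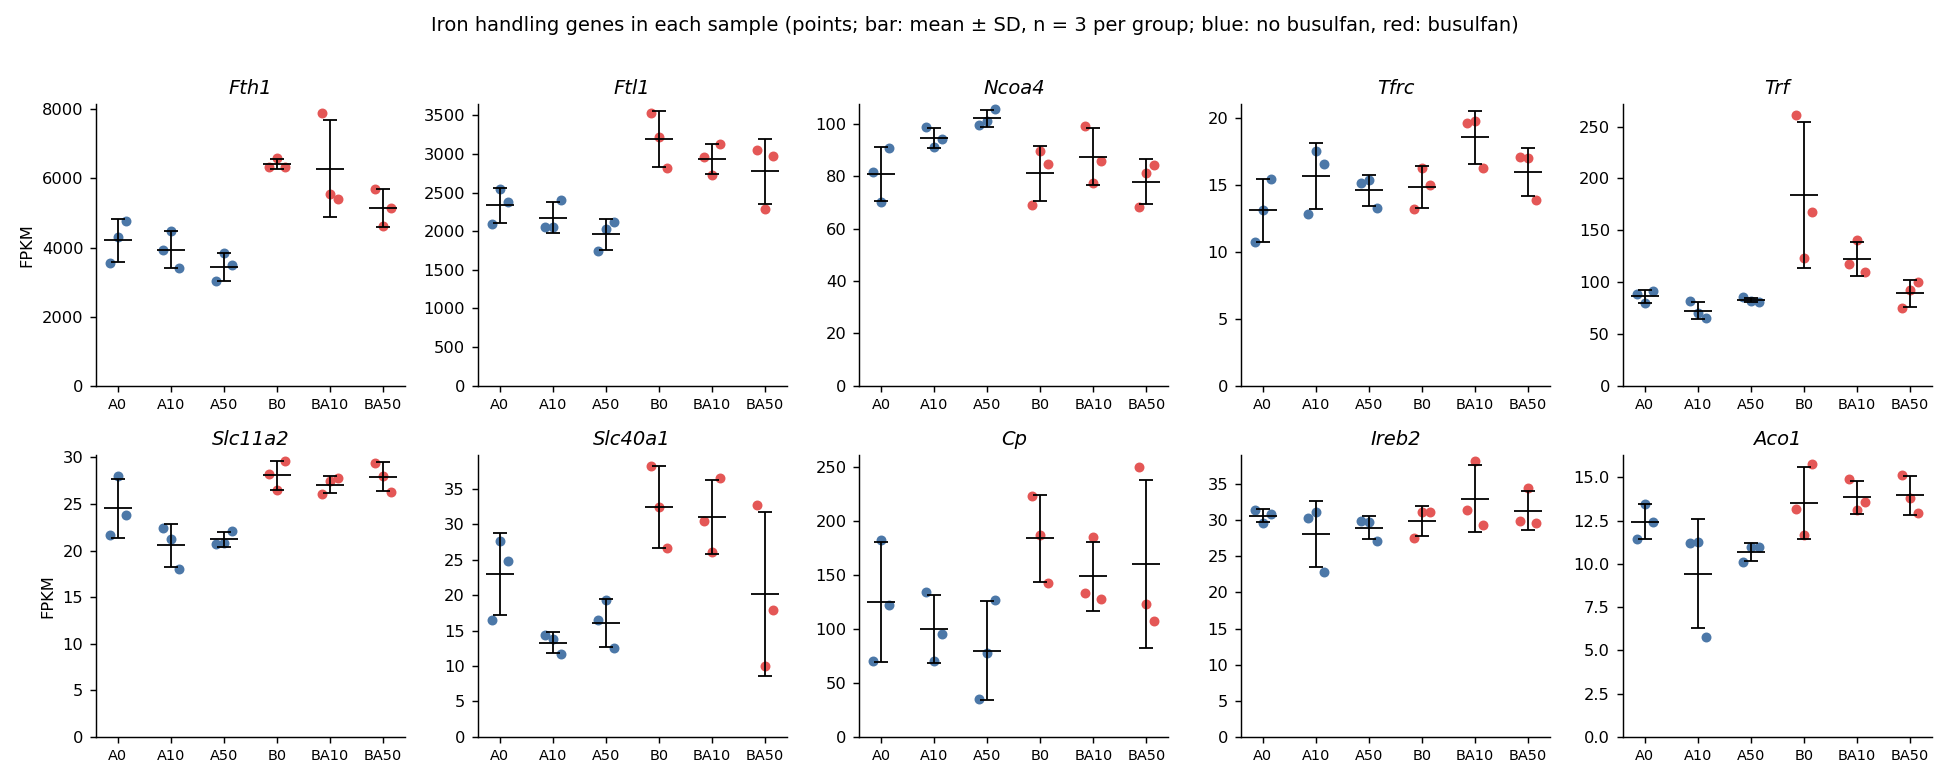
FPKM (y axes, linear, from 0) of the 10 iron genes in each of the 18 samples (points) by group (x axes), with the mean ± SD of the 3 samples of each group; blue marks groups without and red groups with busulfan. Fth1 and Ftl1 sit higher in the red groups, Trf is highest in B0 (124 to 261 FPKM), and the single low Aco1 point (5.79 FPKM) is A10 sample 3.

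Ferritin heavy chain transcripts were the most abundant or the second most abundant in every sample. Fth1 measured 3544, 4294 and 4775 FPKM in A0, 3928, 4486 and 3408 FPKM in A10, and 3021, 3834 and 3487 FPKM in A50. With busulfan it measured 6321, 6592 and 6344 FPKM in B0, 7896.5, 5537 and 5397 FPKM in BA10, and 5704, 4612 and 5133 FPKM in BA50. Where groups of 3 samples do not overlap, here and below, this is a description. The share of all genes with such groups is not given. At each AOS level the samples with busulfan lay above those without, and 8 of the 9 lay above all 9 samples without busulfan, the exception being BA50 sample 2. The description of that difference is 5949 ± 967 FPKM with and 3864 ± 567 FPKM without busulfan (SD, n = 9 each), or 0.62 ± 0.10 (SE) on the log2(FPKM + 1) scale, the scale of all log2 differences below. Fth1 ranked first in 5 samples with busulfan and second, behind Col19a1, in the other 13. Around that limit, the narrowest first place was in BA50 sample 1 (Fth1 5704, Col19a1 5039 FPKM) and the narrowest second place in BA50 sample 2 (Col19a1 4640.5, Fth1 4612 FPKM).

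The light chain was also higher with busulfan. Ftl1 measured 2089, 2541 and 2372 FPKM in A0, 2058, 2056 and 2403 FPKM in A10, and 1738, 2024 and 2123 FPKM in A50. It measured 3534, 3218 and 2817 FPKM in B0, 2957, 2729 and 3123 FPKM in BA10, and 3056, 2287 and 2978 FPKM in BA50. As for Fth1, BA50 sample 2 was the only 1 of the 9 with busulfan that fell within the range without it. That sample also held the highest spermatid marker sum of all (10893 FPKM over 8 markers) and a macrophage sum of 298 FPKM against 645 and 741 FPKM in the other BA50 samples; their part in its ferritin level was not tested. In limma, a linear model with a shared spread fitted to 15790 genes, the mean busulfan difference of Ftl1 over the 3 AOS levels was 0.46 ± 0.09 (SE), a fold of 1.37 (adjusted p = 0.00056). After quantile normalization, which fixes the values of the top ranks in every sample, it was 0.13 (adjusted p = 0.34), so for a gene ranked 3 to 8 in each sample the size of the rise depends on the scaling. The same limit holds for the size of the Fth1 difference given above, as Fth1 ranked 1 or 2 in every sample. At single AOS levels Ftl1 passed in BA50 vs. A50 (0.49 ± 0.15, adjusted p = 0.028), a call lost without A50 sample 1 or 2 or BA50 sample 1 or 3 (adjusted p = 0.13, 0.062, 0.10 and 0.095). That call was also lost after quantile normalization, without the filter on low values and when only those 2 groups were fitted. Over all its alternatives the difference went down to 0.14 and the adjusted p up to 0.63 (limma). Together Fth1 and Ftl1 made up 1.01 to 1.53% of the summed FPKM without and 1.38 to 2.22% with busulfan. The ratio of Fth1 to Ftl1 was 1.80 ± 0.23 without and 2.01 ± 0.30 with busulfan (SD, n = 9 each), with ranges that overlapped (1.42 to 2.18 and 1.72 to 2.67). Both genes have processed copies in the genome that can share reads with them, so their exact levels are uncertain.

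Ncoa4, which hands ferritin to the lysosome, did not follow the ferritin genes. It measured 81.5, 70.3 and 90.9 FPKM in A0, 98.6, 91.0 and 94.2 FPKM in A10, and 99.7, 101 and 106 FPKM in A50. It measured 69.2, 89.5 and 84.6 FPKM in B0, 99.2, 77.5 and 85.8 FPKM in BA10, and 68.2, 81.1 and 84.5 FPKM in BA50. The busulfan and control samples overlapped at 0 and 10 µg/mL and were apart at 50 µg/mL, where Ncoa4 was lower with busulfan by limma (−0.39 ± 0.12, SE; adjusted p = 0.038). That call was lost without any 1 of 5 of the 6 samples compared, all but BA50 sample 3 (adjusted p = 0.053 without BA50 sample 2, 0.081, 0.089 and 0.11 without A50 samples 1, 2 and 3, and 0.15 without BA50 sample 1, with differences of −0.42 to −0.30). Fitting only BA50 and A50 ended it as well. Over the 3 AOS levels the mean difference was −0.17 ± 0.07 (adjusted p = 0.077), and it passed without A0 sample 2 (−0.20, adjusted p = 0.039) or without BA10 sample 1 (−0.20, adjusted p = 0.045).

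Across the 3 AOS levels together, busulfan raised 6 of the 9 genes other than Fth1 and lowered none at adjusted p under 0.05. Of all 15790 genes tested, 38.1% passed in this comparison, 13.3% higher and 24.8% lower (23.2% and 21.8% after quantile normalization). The 6 were Ftl1, Slc11a2, Trf, Slc40a1, Aco1 and Cp, and the median difference of the 9 was 0.34 against 0.01 for all genes tested. The count was 5 when all samples without AOS were left out (Cp and Slc40a1 lost, Ncoa4 lower) and 4 when B0 sample 1 and A10 sample 3 were left out together (Cp and Slc40a1 lost, adjusted p = 0.075 and 0.052). None of the 9 reached the limits given in the study's methods (adjusted p at most 0.001 and a log2 difference of at least 1 in size), which 3.61% of all genes did. The study set those limits for DEGseq, a test on reads, and not for limma on FPKM. At single AOS levels, with 3 samples against 3, 1 of the 9 passed in B0 vs. A0 (13.8% of all genes), 4 in BA10 vs. A10 (18.9%) and 3 in BA50 vs. A50 (19.9%).

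**Figure D2:**
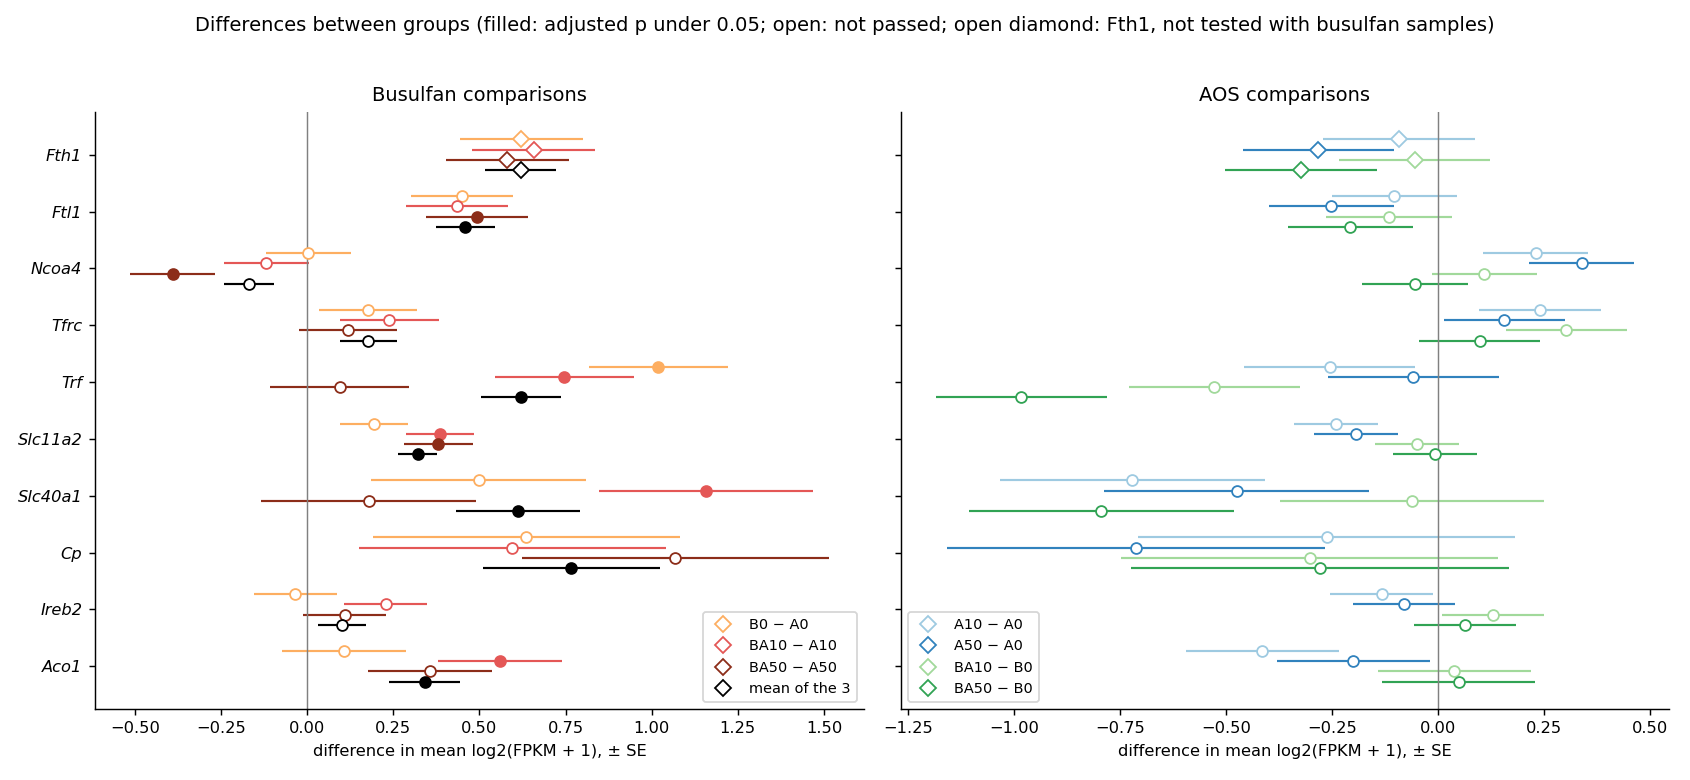
Differences in mean log2(FPKM + 1) ± SE (x axes) for the 10 genes (rows), for busulfan at each AOS level and averaged over the 3 (left) and for AOS without and with busulfan (right); filled points passed at adjusted p under 0.05, open points did not, and diamonds mark Fth1, which was not tested where busulfan samples enter. No point on the right is filled, and the Trf differences on the left run from 0.09 at 50 µg/mL AOS to 1.02 without AOS.

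Transferrin, the plasma iron carrier that Sertoli cells also secrete, showed the largest busulfan difference of the 10 without AOS. Trf measured 88.5, 79.5 and 91.1 FPKM in A0, 81.5, 70.2 and 65.5 FPKM in A10, and 85.2, 82.2 and 80.9 FPKM in A50. It measured 261, 124 and 168 FPKM in B0, 117, 140.2 and 109 FPKM in BA10, and 74.8, 92.0 and 100.4 FPKM in BA50. The groups were apart at 0 and 10 µg/mL and overlapped at 50 µg/mL. By limma Trf rose with busulfan by 1.02 ± 0.20 (SE) in B0 vs. A0 (adjusted p = 0.0027) and by 0.75 ± 0.20 in BA10 vs. A10 (adjusted p = 0.017), and the difference was 0.09 ± 0.20 in BA50 vs. A50 (adjusted p = 0.78). The BA10 vs. A10 call was lost without A10 sample 3 (0.68, adjusted p = 0.067) or BA10 sample 2 (0.64, adjusted p = 0.065), and the B0 vs. A0 call when only those 2 groups were fitted (adjusted p = 0.0597). Averaged over the 3 levels, Trf rose by 0.62 ± 0.12 (adjusted p = 0.00063). B0 sample 1, with the highest Trf, also held the highest fat cell marker sum of the series (887 FPKM), against 207 FPKM in B0 sample 2, with the lowest Trf of that group. Without B0 sample 1 the difference in B0 vs. A0 was 0.73 (adjusted p = 0.0075). With all 6 samples without AOS left out, busulfan raised Trf by 0.42 (limma, adjusted p = 0.0078), a mean over 10 and 50 µg/mL. In those samples too the fat cell sums were apart, at 42.5 to 60.97 FPKM in A10 and 68.0 to 123 FPKM in BA10. They were also apart at 50 µg/mL, where the Trf difference was 0.09 (60.95 to 63.2 FPKM in A50, 101 to 138 FPKM in BA50). BA10 sample 1 had the lowest fat cell sum with busulfan (68.0 FPKM) and 117 FPKM of Trf, and BA50 sample 1 had 101 and 74.8 FPKM. Every B0 sample was also above all others in the simple epithelium and endothelium sums. The Sertoli sum (11 markers) was 3357 to 4627 FPKM in A0 and 3370 to 4786 FPKM in B0. It was 1209 to 3010 FPKM in A10 and 3123 to 5628 FPKM in BA10, and 2663 to 3557 FPKM in A50 and 3320 to 5573 FPKM in BA50. The part of the RNA of any of these cells in the Trf level was not tested.

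**Figure D3:**
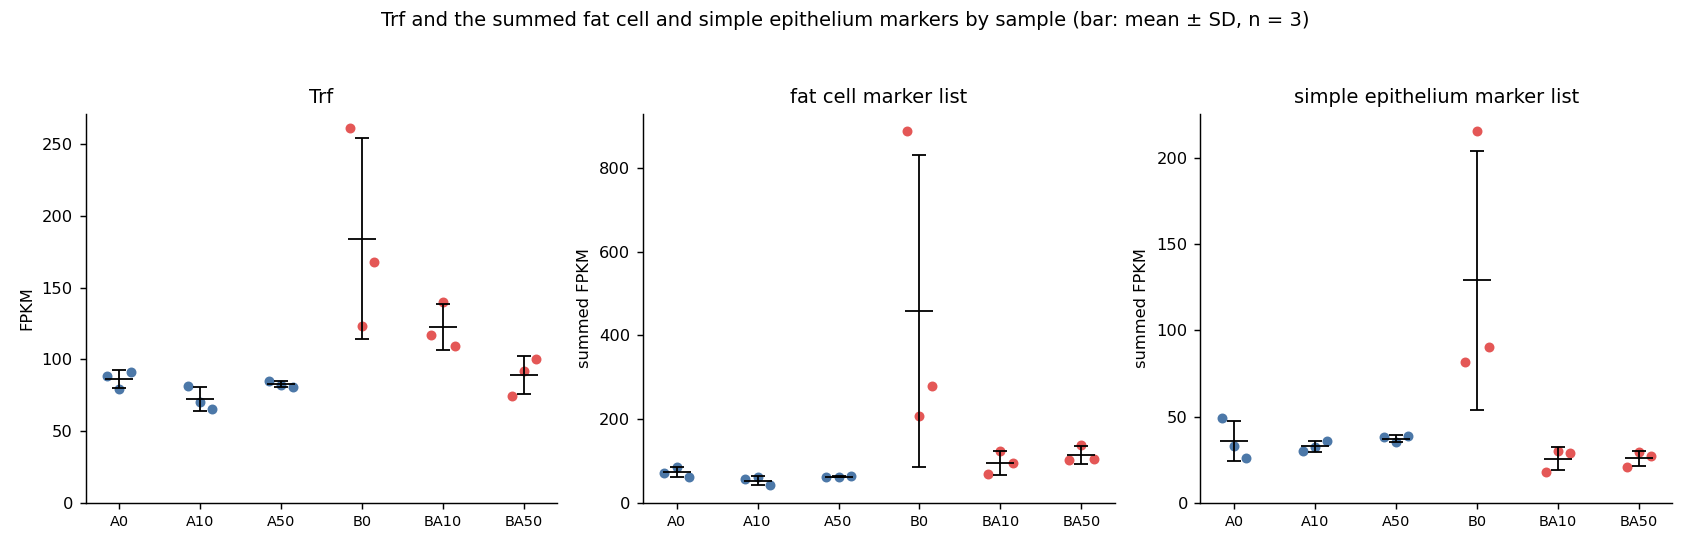
Trf (left, FPKM) and the summed FPKM of 7 fat cell markers (middle) and 6 simple epithelium markers (right) in each sample by group, with the mean ± SD (n = 3). The B0 samples are above all others for both marker sums, and B0 sample 1 is the highest for Trf (261 FPKM) and for fat cell markers (887 FPKM).

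The importer Slc11a2 had the smallest adjusted p of the 9 genes. It measured 21.7, 28.0 and 23.9 FPKM in A0, 22.5, 21.2 and 18.04 FPKM in A10, and 20.7, 20.8 and 22.1 FPKM in A50. All 9 samples with busulfan lay between 26.0 and 29.6 FPKM, and only A0 sample 2 (28.0 FPKM) fell in that range. By limma the mean busulfan difference was 0.32 ± 0.06 (SE; adjusted p = 0.00040). At single levels it was 0.39 ± 0.10 in BA10 vs. A10 (adjusted p = 0.013), 0.38 ± 0.10 in BA50 vs. A50 (adjusted p = 0.012) and 0.19 ± 0.10 in B0 vs. A0 (adjusted p = 0.25). The BA10 vs. A10 call was lost without A10 sample 3 (0.30, adjusted p = 0.053) and the BA50 vs. A50 call without BA50 sample 1 (0.34, adjusted p = 0.0503). Fitting only BA10 and A10 also ended the call between them. The receptor Tfrc, which carries the 3′ UTR hairpins, ranged from 10.8 to 17.5 FPKM without and from 13.2 to 19.8 FPKM with busulfan. Its mean busulfan difference of 0.18 ± 0.08 did not pass (adjusted p = 0.10), and it passed after quantile normalization (0.23, adjusted p = 0.038).

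The exporter Slc40a1 and the ferroxidase Cp varied most within groups. Slc40a1 measured 16.5, 27.6 and 24.9 FPKM in A0, 14.4, 13.9 and 11.6 FPKM in A10, and 16.5, 19.3 and 12.6 FPKM in A50. It measured 38.2, 32.5 and 26.7 FPKM in B0, 30.4, 26.1 and 36.6 FPKM in BA10, and 32.7, 9.95 and 17.9 FPKM in BA50. The BA50 samples spanned the whole range without busulfan, the 9.95 FPKM being BA50 sample 2 described above. The mean busulfan rise was 0.61 ± 0.18 (SE; limma, adjusted p = 0.015), made up of 1.16 ± 0.31 in BA10 vs. A10 (adjusted p = 0.017), 0.50 ± 0.31 in B0 vs. A0 (adjusted p = 0.37) and 0.18 ± 0.31 in BA50 vs. A50 (adjusted p = 0.73). In BA10 vs. A10 the call was lost without A10 sample 3 (1.07, adjusted p = 0.064) or BA10 sample 3 (1.04, adjusted p = 0.069). Slc40a1 is a macrophage iron exporter, and the macrophage marker sum (10 markers) was 284 to 866 FPKM without and 298 to 965 FPKM with busulfan. In the samples of A10 it was 700.2, 351 and 284 FPKM and in those of BA10 827, 526 and 813 FPKM; its part in the Slc40a1 difference was not tested.

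Cp measured 70.3, 182 and 122 FPKM in A0, 134, 70.6 and 95.1 FPKM in A10, and 35.2, 77.6 and 127 FPKM in A50. It measured 223, 187 and 142 FPKM in B0, 133, 185 and 127 FPKM in BA10, and 250, 123 and 107 FPKM in BA50. The groups overlapped at every AOS level. Its mean busulfan rise of 0.77 ± 0.26 (SE; adjusted p = 0.029 by limma) was the largest of the 9 and the least firm. The call was lost without any 1 of 6 samples, namely A0 sample 1, A10 sample 2, A50 sample 1, B0 sample 1, BA10 sample 2 or BA50 sample 1, where the rise was 0.60 to 0.72 (adjusted p = 0.053 to 0.0599).

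The 2 iron regulatory proteins differed in their values. Aco1, a cytosolic aconitase that becomes an RNA-binding protein when it loses its iron-sulfur cluster, measured 11.4, 13.5 and 12.4 FPKM in A0, 11.2, 11.3 and 5.79 FPKM in A10, and 10.1, 10.95 and 11 FPKM in A50. It measured 13.2, 11.7 and 15.8 FPKM in B0, 14.9, 13.1 and 13.6 FPKM in BA10, and 15.2, 13.8 and 12.9 FPKM in BA50. By limma it rose on average by 0.34 ± 0.10 (SE; adjusted p = 0.018), and this call held without any single sample. The difference in BA10 vs. A10 (0.56 ± 0.18, adjusted p = 0.042) was 0.28 (adjusted p = 0.13) without A10 sample 3, the one at 5.79 FPKM, and did not pass without any 1 of the BA10 samples either (adjusted p = 0.13, 0.063 and 0.086 without samples 1, 2 and 3). Nor did it pass with all genes unfiltered, with the replicate number as a block or when only BA10 and A10 were fitted. Ireb2, which is degraded when iron is plentiful, ranged from 22.8 to 31.4 FPKM without and 27.5 to 38.2 FPKM with busulfan, and its mean difference of 0.10 ± 0.07 did not pass (adjusted p = 0.27).

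AOS was compared with no AOS separately in testes without and with busulfan. Without busulfan, none of the 10 genes passed at 10 or 50 µg/mL, and neither did any other gene (0% of 15790 in both comparisons). At an unadjusted p under 0.05, 3 of the 9 genes other than Fth1 were lower in A10 vs. A0, where 15.2% of all genes reached that limit: Slc40a1 (−0.72 ± 0.31, SE), Aco1 (−0.41 ± 0.18) and Slc11a2 (−0.24 ± 0.10), each with an adjusted p of 0.32 by limma. A10 sample 3 was the lowest of its group for all 3. In A50 vs. A0, where 15.6% of all genes reached that limit, Ncoa4 did (0.34 ± 0.12, adjusted p = 0.26), and its A50 samples lay above all A0 samples. Fth1 itself differed by −0.09 ± 0.18 in A10 vs. A0 (adjusted p = 0.79) and by −0.28 ± 0.18 in A50 vs. A0 (adjusted p = 0.40).

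With busulfan, none of the 9 genes passed in BA10 vs. B0 (0.0253% of all genes) or in BA50 vs. B0 (0.095%). These comparisons share the B0 samples with each other and with B0 vs. A0. Trf was the lowest with AOS relative to B0: the difference was −0.53 ± 0.20 (SE) at 10 µg/mL (limma, adjusted p = 0.75) and −0.98 ± 0.20 at 50 µg/mL (adjusted p = 0.081), where the groups were apart (74.8 to 100.4 FPKM in BA50, 124 to 261 FPKM in B0). The second difference passed without B0 sample 2 (−1.24, adjusted p = 0.0099) or without BA50 sample 1 (−0.86, adjusted p = 0.044), was −0.70 (adjusted p = 0.11) without B0 sample 1, the one with the highest fat cell sum, passed at the same −0.70 (adjusted p = 0.047) when A10 sample 3 was left out as well, and over the alternatives its adjusted p ran from 0.0099 to 0.46. Slc40a1 was −0.79 ± 0.31 in BA50 vs. B0 (adjusted p = 0.15), and −1.20 (adjusted p = 0.037) without BA50 sample 1. Fth1 differed by −0.32 ± 0.18 in BA50 vs. B0 (4612 to 5704 FPKM against 6321 to 6592 FPKM), given as a description. At an unadjusted p under 0.05, 1 of the 9 genes was counted in BA10 vs. B0 (5.05% of all genes) and 2 in BA50 vs. B0 (24.3%).

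Whether AOS acted differently on testes with and without busulfan was tested as the difference of the AOS changes. None of the 9 genes and no other gene passed at 10 or at 50 µg/mL (0% of 15790 each). At an unadjusted p under 0.05, 3.97% of all genes and 0 of the 9 were counted at 10 µg/mL, and 6.28% and 2 of the 9 at 50 µg/mL. The 2 were Trf (−0.93 ± 0.29, SE, adjusted p = 0.62 by limma) and Ncoa4 (−0.39 ± 0.18, adjusted p = 0.78). For Trf the AOS change was −0.98 with and −0.06 without busulfan. For Ncoa4 it was −0.05 with and 0.34 without busulfan. A p that misses the limit does not show that the AOS changes were equal.

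The genes most like Fth1 across the 18 samples, by Pearson's r of log2(FPKM + 1), were Esd (0.954), Ext1 (0.947), Golim4 (0.944), Mlkl (0.939) and Rnf11 (0.936). These are descriptions over samples that share the busulfan contrast. Ftl1 had r = 0.851, with 140 genes above it. Relative to their group means, the deviations of Fth1 and Ftl1 had r = 0.297, and those of Fth1 and Aco1 0.515, the highest of the 9.

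A wider list of 77 iron genes, also chosen with earlier results of these data known, set the 10 in context. Of the 77, 74 passed the filter on low values. With busulfan averaged over the AOS levels, 19 were higher and 10 lower, or 39.2% of the 74 against 38.1% of all genes, a share near the background. By direction the list had 25.7% higher and 13.5% lower, against 13.3% and 24.8% of all genes. After quantile normalization it had 32.4% higher and 12.2% lower, against 23.2% and 21.8% of all genes, so the size of the contrast with all genes depends on the scaling. The median difference was 0.10 for the list and 0.01 for all genes tested. In the AOS comparisons none of the 74 passed.

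Among the uptake genes, 2 of 11 rose (18.2%) and 1 fell (9.09%), against 13.3% and 24.8% of all genes. Lcn2, a lipocalin that binds iron-loaded siderophores, rose from 989 ± 263 to 1447 ± 360 FPKM (SD, n = 9 each; log2 difference 0.55, adjusted p = 0.013 by limma), and Slc39a14, a zinc and iron importer, by 0.45 (adjusted p = 0.012). The Lcn2 call was lost after quantile normalization (0.37, adjusted p = 0.077) and when all samples without AOS were left out (0.58, adjusted p = 0.072). The related importer Slc39a8 fell by 0.21 (adjusted p = 0.038), a call that 15 of 26 alternative settings ended (adjusted p up to 0.22); of the 18 samples left out singly, only A0 sample 3, A10 sample 1 or 2, A50 sample 3, B0 sample 2, BA10 sample 1 or 2 and BA50 sample 1 could be spared. Of the 9 genes of iron export and its hormonal control, 4 rose (44.4%) and none fell, against the same 13.3% and 24.8% of all genes. Bmp6, a ligand that drives hepcidin expression in the liver, rose from 5.40 ± 0.99 to 9.89 ± 2.99 FPKM (0.74, adjusted p = 0.00060). The ferroxidases Hephl1 (0.46, adjusted p = 0.00060) and Heph (0.44, adjusted p = 0.018) and the precursor protein App (0.31, adjusted p = 0.0016) rose less. The Heph call was lost when all samples without AOS were left out (0.42, adjusted p = 0.090).

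Of the 12 storage and control genes 1 rose (8.33%) and 4 fell (33.3%), shares not far from the 13.3% and 24.8% of all genes, and 7 did not pass. Nubp2, a cytosolic scaffold for iron-sulfur clusters, measured 37.9 to 63.3 FPKM without (median 49.2) and 23.5 to 34.6 FPKM with busulfan (median 27.6), with no overlap (9.66% of all genes tested were lower without overlap), a fall of 0.83 (limma, adjusted p = 5.5e-08). Pcbp2, an RNA-binding protein that also chaperones iron to ferritin, measured 237 to 325 FPKM without (median 289) and 183 to 226 FPKM with busulfan (median 205), again with no overlap (−0.48, adjusted p = 2.5e-06). Glrx3 (−0.31, adjusted p = 0.011) and Herc2 (−0.25, adjusted p = 0.016) fell as well, and Epas1, the hypoxia factor HIF-2α whose transcript is a known iron regulatory protein target, rose by 0.42 (adjusted p = 0.0019). The Herc2 call was lost when all samples without AOS were left out (−0.18, adjusted p = 0.20). The spermatocyte marker sum was lower over the same samples (304 to 540 FPKM without, 102 to 260 FPKM with busulfan); its part in these differences was not tested.

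Of the 21 heme genes 7 rose and none fell, so 33.3% passed against 38.1% of all genes, and 33.3% were higher against 13.3% (47.6% against 23.2% after quantile normalization). Blvrb, a biliverdin reductase, rose from 66.9 ± 11.8 to 108 ± 15.4 FPKM (0.69, adjusted p = 9.6e-06 by limma), and the heme transporter Slc48a1 by 0.51 (adjusted p = 0.00064). Hmox1, the inducible heme oxygenase, measured 439 to 861 FPKM without (median 612) and 614 to 1434 FPKM with busulfan (median 886), a rise of 0.50 (adjusted p = 0.011), and the exporter Abcg2 rose by 0.25 (adjusted p = 0.015). The rise of Hmox1 was 0.35 (adjusted p = 0.0996) when all samples without AOS were left out. Of the 21 iron-sulfur cluster genes 5 rose and 5 fell (23.8% each), against 13.3% higher and 24.8% lower of all genes, so the share that fell was near the background. Ferredoxin reductase Fdxr (0.49, adjusted p = 0.0040), the mitochondrial carriers Sfxn1 (0.47, adjusted p = 0.0039) and Slc25a37 (0.41, adjusted p = 0.0023), and ferredoxin Fdx1 (0.32, adjusted p = 0.045) rose. Fdx1 takes part in steroid synthesis in Leydig cells, and the Leydig marker sum (6 markers) was 706 to 1168 FPKM without and 934 to 2283 FPKM with busulfan; its part was not tested. Its call was lost in 15 of 26 alternative settings (adjusted p up to 0.28), and of the samples left out singly only sample 3 of A0, A10 or A50, B0 sample 1 and sample 2 of BA10 or BA50 could be spared. Abcb8 (−0.36, adjusted p = 0.00040), Ciapin1 (−0.31, adjusted p = 0.00060), Lyrm4 (−0.23, adjusted p = 0.0042) and Nfu1 (−0.23, adjusted p = 0.00044) fell.

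**Figure D4:**
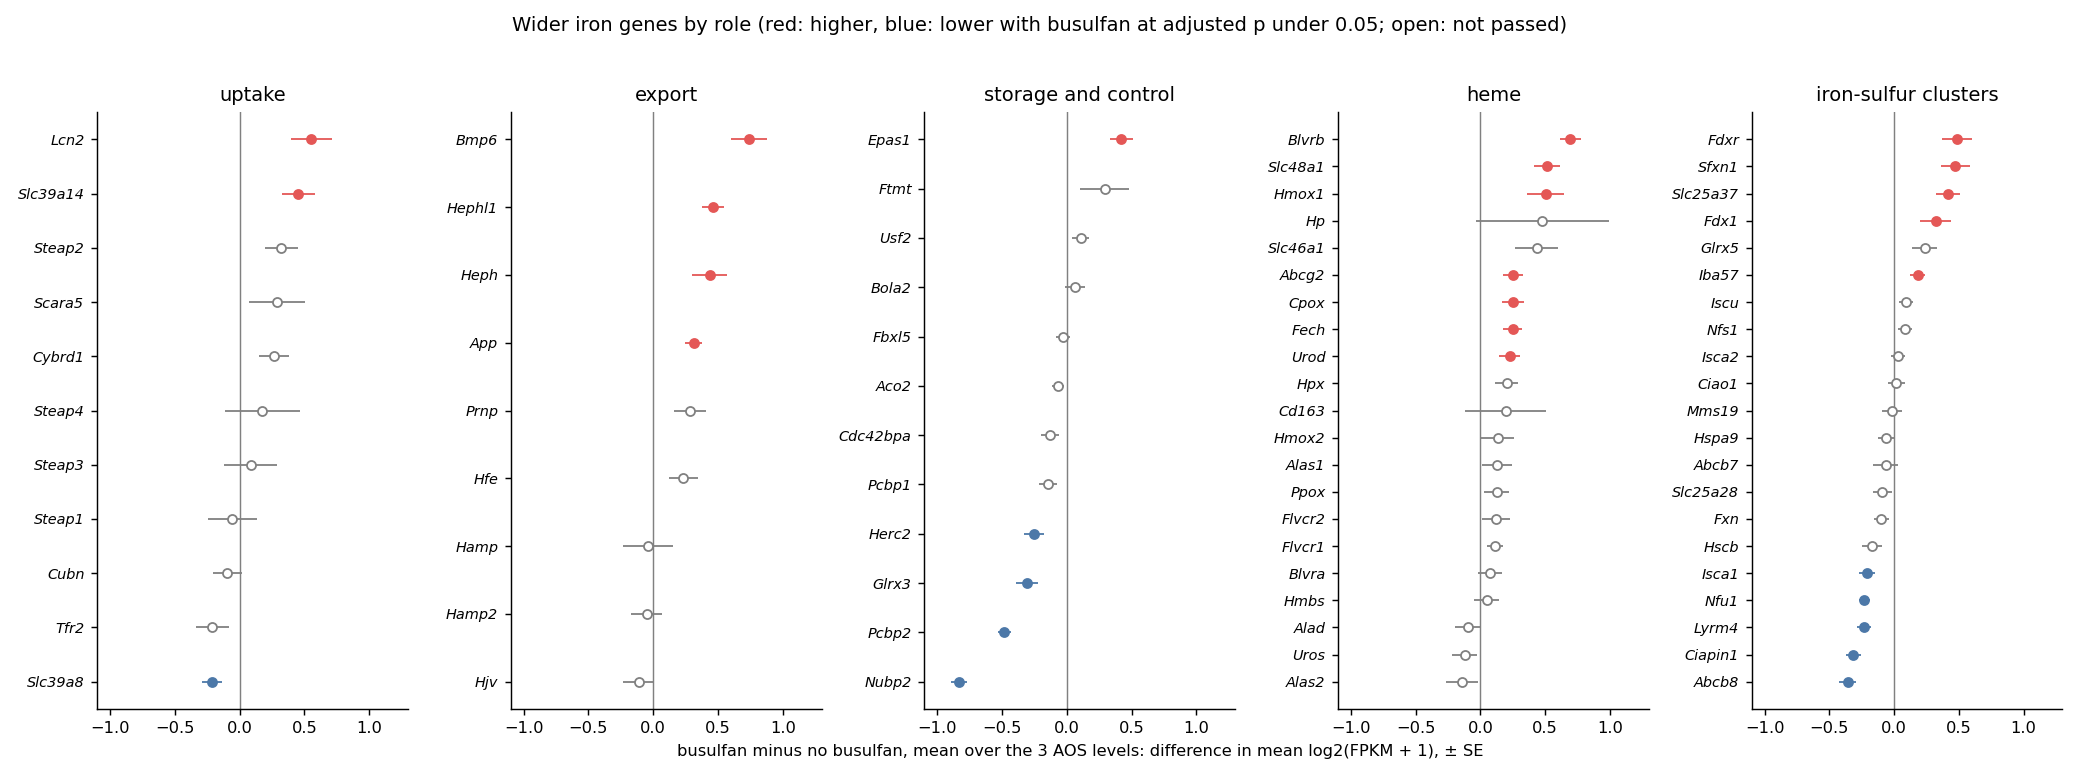
Differences in mean log2(FPKM + 1) ± SE between samples with and without busulfan, averaged over the 3 AOS levels (x axes), for the 74 tested genes of the wider list in 5 role groups (panels); red and blue points passed at adjusted p under 0.05, higher and lower, and open grey points did not. The export and heme panels hold 4 and 7 red points and no blue one, and Nubp2 at −0.83 is the lowest of the storage and control genes. Of all genes tested, 13.3% were higher and 24.8% lower.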

How the data were processed

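RNA of whole cultured testes was sequenced (18 samples, 6 groups of 3). The table deposited by the authors holds FPKM per gene, with 2 decimals. The submitters' processing notes name HISAT, Bowtie2, RSEM and GRCm38.p5, whereas the study's supplementary methods describe another aligner and per-gene RPKM, so how these FPKM were made is not settled, nor whether reads shared by near-identical genes were split. FPKM are relative to the sample's total: a fall in abundant transcripts raises the others. The series text gives the AOS doses in other units than the labels, whose µg/mL are used here. Gene numbers were named with RefSeq (GRCm38.p6): 20656 of 20811 had a symbol, 155 did not, and 1846 added gene models were kept unnamed. No samples were identical.

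With limma 3.58.1 in R 4.3.3 (lmFit, eBayes with trend), genes reaching 1 FPKM in 3 or more samples (15790) were fitted on the log2(FPKM + 1) scale, over all 18 samples with 6 group means. P-values were Benjamini-Hochberg adjusted over all genes tested, and 0.05 was the limit. Tests were run on simulated data with known changes. The 10 genes, the wider iron list and the marker lists (Sertoli, Leydig, macrophage, spermatogonium, spermatocyte, spermatid, peritubular myoid, endothelium, erythroid, fat cell, simple epithelium) were chosen with earlier results of these data known. Named genes were the 10 in every comparison, the wider genes passing in the mean busulfan or an AOS comparison (at most 4 largest per direction and role) and the 5 most like Fth1. Fth1 got no p where busulfan samples enter. Hairpins were searched with Python 3.11.15 in GENCODE M21 UTRs.

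Sample titles share replicate numbers. Same-numbered samples deviated together from their group means in all 3 pairs in BA50 vs. B0 (r = 0.562, 0.422 and 0.138 over genes). The same held, more weakly, in BA50 vs. A50 (0.037, 0.204 and 0.13). In A10 vs. A0 all 3 pairs went the other way (−0.112, −0.113 and −0.221). The remaining comparisons had mixed signs, from −0.429 in B0 vs. A0 to 0.341 in BA10 vs. B0. No label states a pairing, so whether the numbers pair the samples is not known. As alternatives, the fits were repeated with the replicate number as a block, with just the groups in question, 0.1 as pseudocount, all genes unfiltered, a mean of at least 5 FPKM, quantile normalization, no trend, the methods' limits, leaving out each sample and, chosen after seeing the data, only samples with AOS and leaving out B0 sample 1 and A10 sample 3 together.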

Additional observations from a re-analysis of the deposited data

How the results depend on the processing

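Each number here is how many of the 9 genes other than Fth1 passed. In B0 vs. A0 (1) it was 2 with the mean filter of 5 FPKM or without trend, and 0 with only those groups fitted or the methods' limits. In BA10 vs. A10 (4) it was 2 with only those groups fitted or without B0 sample 1 and A10 sample 3, 0 at the methods' limits, and 1 to 4 when 1 sample was left out (1 without A10 sample 3). In BA50 vs. A50 (3) it was 0 at the methods' limits and 0 to 3 when 1 sample was left out (0 without BA50 sample 1). Over the 3 AOS levels (6) it was 0 at the methods' limits and otherwise 4 to 7. In BA50 vs. B0 (0) it was 1 without B0 sample 1 and A10 sample 3 and 0 to 2 when 1 sample was left out (1 without B0 sample 2, 2 without BA50 sample 1). The other AOS comparisons and both differences of AOS changes stayed at 0. Where fewer samples or groups were fitted the spread rests on fewer samples; otherwise the cause was not tested. No named gene changed direction. Slc11a2, Trf and Aco1 kept their mean busulfan calls at adjusted p under 0.05 in all 26 alternative fits; at the methods' limits none of the 9 passed.

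With the replicate block the counts were 1, 3, 3 and 6 for busulfan and 0 for each AOS comparison, BA50 vs. B0 included: 1 of the 10 genes' calls changed, Aco1 in BA10 vs. A10 (adjusted p = 0.057). By their labels the samples share only a number, and 6 of 18 samples were most like a sample of their own number. In the wider list the block left 27 of 29 genes past the limit, and the other alternatives 21 to 33. Among all genes passing in the mean busulfan comparison, 34.8% were higher, against 51.5% after quantile normalization. Depth is unknown and limits the low genes in an unmeasured way.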

Other observations

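The other ferritin genes of the table, chosen after their values were seen, did not share a direction. The X-linked ferritin heavy-like genes Fthl17b, Fthl17c, Fthl17d, Fthl17e and Fthl17f, which germ cells express, averaged 0.38 to 1.21 FPKM over the 9 samples without busulfan and 0 to 0.041 FPKM over the 9 with it. Fthl17f was listed at 0 in all 9 samples with busulfan and Fthl17e in 8 of them, and neither was at 0 in any sample without it. For each of the 5 the ranges with and without busulfan did not overlap (9.66% of the genes tested were lower without overlap, a set without Fthl17d and Fthl17f). These genes are near-identical copies at low levels, so the values of single copies are uncertain and were not tested. Fthl17a differed from them, at 5.17 ± 1.58 FPKM without and 7.39 ± 2.87 FPKM with busulfan (SD, n = 9 each). Its highest values, 12.8, 9.91 and 8.54 FPKM, were in BA50 sample 2, BA10 sample 2 and A10 sample 3, which also held the 3 highest values of the mitochondrial ferritin Ftmt (36.4, 34.9 and 31.3 FPKM). Ftmt averaged 19.1 ± 5.70 FPKM without and 23.9 ± 7.84 FPKM with busulfan, and for both genes the ranges overlapped. The spermatogonium marker sum was 88.7 to 166 FPKM without and 55.8 to 110.4 FPKM with busulfan, and the spermatid sum reached 10893 FPKM in BA50 sample 2; their part in these levels was not tested.

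Haptoglobin (Hp), which captures free hemoglobin, was also singled out after its values were seen. It measured 44.1, 461 and 165 FPKM in A0 and 580.5, 86.2 and 180 FPKM in B0, whereas 11 of the 12 samples with AOS were at most at 74.04 FPKM and the other, BA50 sample 1, at 231 FPKM. The differences from no AOS were −1.70 to −1.75 on the log2(FPKM + 1) scale in all 4 AOS comparisons, each ± 0.89 (SE), and none passed (limma, adjusted p = 0.25 to 0.75). The samples overlapped in A10 vs. A0, A50 vs. A0 and BA50 vs. B0, and were apart in BA10 vs. B0.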
